A study of Mus musculus with 7 samples.

Results

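IgG2c B cells are the cells whose heavy chain contig carries the IGHG2C constant region. They were taken as barcodes with exactly 1 productive heavy chain contig, that contig being called IGHG2C, and 169 of the 17381 cells with 1 heavy chain in 6 lymph node libraries met this rule. The libraries are single-cell sequencing of B cell receptor transcripts from female mice aged 10 to 11 months. The groups were wild-type (WT) mice and mice labelled 5xFAD, a transgenic line whose transgenes are driven by the neuronal Thy1 promoter and which develops brain amyloid. From each genotype the deep cervical lymph node (dCLN), the superficial cervical lymph node (sCLN) and the inguinal lymph node (iLN) gave 1 library, so no group has a second library. Each library combined cells from several hashtag-labelled tubes, whose animals are not separated here, and the labels do not say whether the nodes came from the same animals. A seventh library mixed all nodes and both genotypes. It was kept out of the comparisons.

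IgG2c is the mouse IgG subclass made in strains with this allele in place of IgG2a, and it binds activating Fc receptors and complement well. Class switching to it is driven by interferon-gamma and by Toll-like receptor signals, and it is prominent in antiviral and autoreactive responses. A B cell that switches in or near a germinal centre also accumulates point mutations in its V segments through the enzyme AID, and it may divide into a clone whose cells share the V(D)J junction. When such a cell becomes an antibody-secreting cell its heavy chain transcripts rise steeply. IgM cells of the same library, mostly unmutated, served as the background for each measure.

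The label was checked against the sequence. The bases after the J segment are the start of the first constant exon, and they differ between isotypes. The commonest first 90 bases in the contigs are shown because they carry the cell definition. Capitals mark bases of IgG2b and IgG1 that differ from IgG2c at the same position, and IgM, which differs at 64 of 90 positions, is printed without capitals.
IgG2c: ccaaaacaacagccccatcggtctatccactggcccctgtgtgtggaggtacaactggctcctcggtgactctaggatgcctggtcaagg
IgG2b: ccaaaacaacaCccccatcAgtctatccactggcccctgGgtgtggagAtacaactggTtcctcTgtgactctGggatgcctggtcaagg
IgG1: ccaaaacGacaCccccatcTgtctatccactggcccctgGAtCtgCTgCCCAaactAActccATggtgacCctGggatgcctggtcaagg
IgM: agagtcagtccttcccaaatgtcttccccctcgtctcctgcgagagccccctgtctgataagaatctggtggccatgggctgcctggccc
The printed IgG2c start was found in 165 of 169 IgG2c cells, and the IgG2b start, with 7 differences, in 200 of 202 IgG2b cells. IgG1 differs from IgG2c at 18 of the 90 positions. Allowing up to 4 leading bases, the constant part of 169 of 169 IgG2c contigs matched the GENCODE transcript of Ighg2c and none matched another isotype. The cells were chosen by the constant region call of these same contigs, so the match is not independent of that choice. Ighg2c lies at chr12:113285325-113288932 on the minus strand of GRCm38. Ighg2b is at chr12:113302965-113307933 and Ighm at chr12:113418558-113422730.

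The 4 cervical libraries held nearly all IgG2c cells. WT dCLN had 55 IgG2c cells, 5xFAD dCLN 36, WT sCLN 49, 5xFAD sCLN 21, WT iLN 5 and 5xFAD iLN 3. As a share of cells with a called isotype, dCLN had 1.66% (95% exact interval 1.25 to 2.15) in WT and 0.931% (0.653 to 1.29) in 5xFAD mice. For sCLN it was 1.44% (1.07 to 1.90) in WT and 0.896% (0.556 to 1.37) in 5xFAD. In iLN it was 0.231% (0.075 to 0.538) in WT and 0.144% (0.0297 to 0.420) in 5xFAD. The share was higher in WT than in 5xFAD in 3 of 3 nodes, but in each node the counting intervals overlapped. An exact sign-flip test over 3 node pairs cannot give a p below 0.25, so none is given.

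Among IgG cells alone, IgG2c made up 46.2% (37.0 to 55.6) in the WT and 26.3% (19.1 to 34.5) in the 5xFAD deep node, and these counting intervals did not overlap. The same share was 36.3% (28.2 to 45.0) in WT sCLN and 32.8% (21.6 to 45.7) in 5xFAD sCLN. In iLN it was 18.5% (6.30 to 38.1) in WT and 13.0% (2.78 to 33.6) in 5xFAD. The gap between genotypes was widest in the deep node, with 1 library on each side and no measure of spread between mice. The counting intervals treat cells as independent. The 55 IgG2c cells of WT dCLN were 42 clonal groups, and the 36 of 5xFAD dCLN were 35. IgG1 cells, counted in the same total, numbered 13 in WT dCLN and 32 in 5xFAD dCLN. In the plot of shares by library the intervals cover counting error only.

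**Figure D1:**
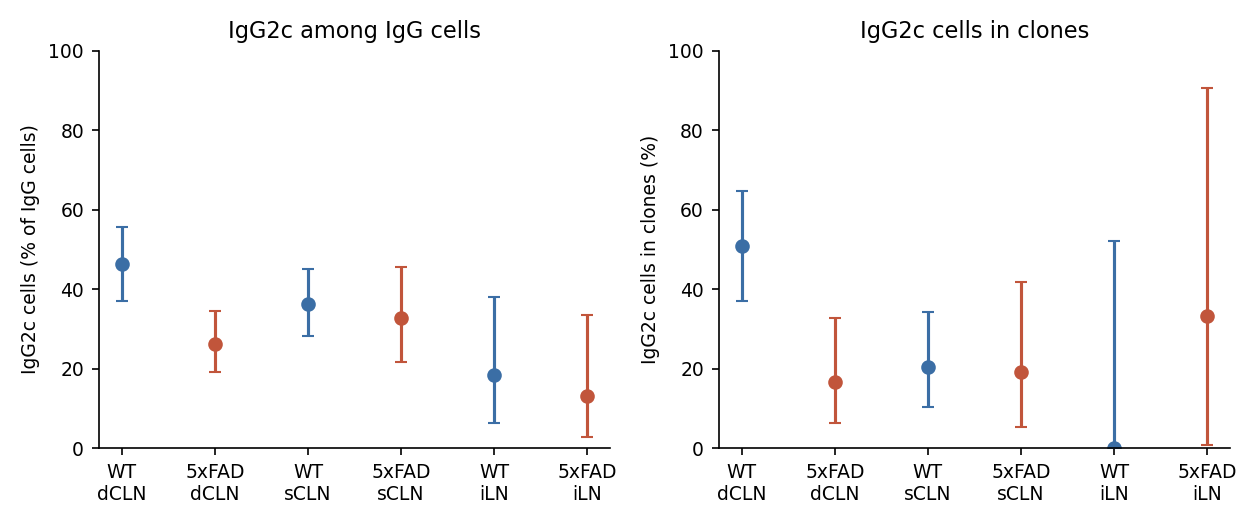
IgG2c cells as a percent of IgG cells (left) and the percent of IgG2c cells that belonged to a clone of 2 or more cells (right), by library, with exact 95% binomial intervals. Blue is WT and red is 5xFAD. In WT dCLN 46.2% of IgG cells were IgG2c and 50.9% of IgG2c cells were in clones, against 26.3% and 16.7% in 5xFAD dCLN.

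Heavy V segments of IgG2c cells were mutated in every library except the 5xFAD iLN. Mutation is given as the percent of V bases that differ from the assigned germline gene (1 minus the V identity). The mean over cells was 3.33% ± 2.73 (SD, n = 55 cells) in WT dCLN, 2.45% ± 2.47 (SD, n = 36) in 5xFAD dCLN, 3.55% ± 3.04 (SD, n = 49) in WT sCLN and 3.82% ± 3.76 (SD, n = 21) in 5xFAD sCLN. In WT iLN it was 2.45% ± 1.49 (SD, n = 5), and the 3 cells of 5xFAD iLN all stood at 0. IgM cells of the same libraries averaged 0.0172% to 0.0350%. IgG2c exceeded IgM in 5 of 6 libraries, by 2.57 ± 1.39 percentage points (SD, n = 6 libraries), and the exact two-sided sign-flip test over libraries gave p = 0.0625, adjusted 0.234 over 9 measures. With 6 libraries the smallest p is 0.03125, which needs the same sign in each. Libraries of 1 genotype may share animals, so they may not be independent.

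**Figure D2:**
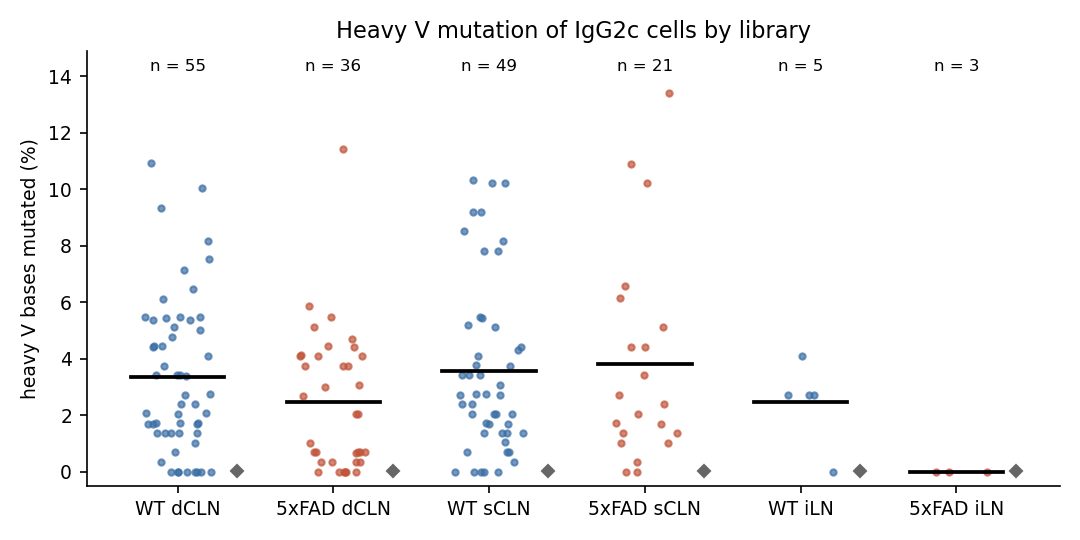
Percent of heavy V bases mutated in each IgG2c cell (points), by library; black lines are means over cells, grey diamonds the mean of IgM cells of the same library. IgG2c means lie between 2.45% and 3.82% in 5 libraries and at 0 in 5xFAD iLN, which has 3 cells.

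The cells within a library were unlike each other. Of the 169 IgG2c cells, 25 had no heavy V mutation, 17 had some but under 1%, 88 had 1% to under 5% and 39 had 5% or more. Unmutated cells numbered 8 in WT dCLN, 6 in 5xFAD dCLN, 5 in WT sCLN, 2 in 5xFAD sCLN, 1 in WT iLN and 3 in 5xFAD iLN. Of IgM cells, 95.8% (95.4 to 96.1) were unmutated and 4 of 13024 reached 5%. At least 1% mutation was found in 81.8% (69.1 to 90.9) of IgG2c cells of the WT and 55.6% (38.1 to 72.1) of the 5xFAD deep node. In the superficial node it was found in 81.6% (68.0 to 91.2) of WT and 85.7% (63.7 to 97.0) of 5xFAD cells. The 5xFAD dCLN was the lowest cervical library on this count, and its interval overlapped those of the other 3. The most mutated IgG2c cell came from 5xFAD sCLN, an IGHV1-81 and IGHJ1 heavy chain with 13.4% of V bases changed and a light chain with 8.36%.

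Light chain V segments showed the same order of isotypes. In cells with exactly 1 light chain the mean light V mutation of IgG2c cells was 2.25% in WT dCLN, 2.00% in 5xFAD dCLN, 2.62% in WT sCLN, 2.26% in 5xFAD sCLN, 2.33% in WT iLN and 0.117% in 5xFAD iLN. IgM cells stood at 0.128% to 0.198%. IgG2c was higher in 5 of 6 libraries, by 1.77 ± 0.901 percentage points (SD, n = 6), exact sign-flip p = 0.0625, adjusted 0.234. Across the 148 IgG2c cells with 1 light chain, heavy and light mutation went together with Pearson's r = 0.73, and within the 4 cervical libraries r ran from 0.69 to 0.90. These are values across cells that share libraries and clones, given as a description. Of the 22 unmutated IgG2c cells with 1 light chain, 19 also had an unmutated light chain, against 1 of 34 cells at 5% or more.

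Mutations in IgG2c heavy chains lay more densely in the complementarity-determining regions (CDRs), the loops that contact antigen, than in the framework regions (FWRs) that hold the fold. Over the 6 libraries 1529 mutations were counted from framework 1 to framework 3. They changed 5.17% of CDR1 and CDR2 bases and 2.74% of framework bases, a ratio of 1.89. The ratio was 1.97 in WT dCLN, 1.45 in 5xFAD dCLN, 2.08 in WT sCLN, 1.83 in 5xFAD sCLN and 1.95 in WT iLN. CDR2 was the most mutated region at 5.89%, then CDR1 at 4.48%, FWR3 at 3.46%, FWR2 at 2.84% and FWR1 at 1.56%. Replacement mutations outnumbered silent ones by 330 to 90 in the CDRs and by 695 to 414 in the frameworks. The framework ratio was thus 1.68 and the CDR ratio 3.67. Cells of 1 clone repeat mutations, so these totals are not independent events.

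**Figure D3:**
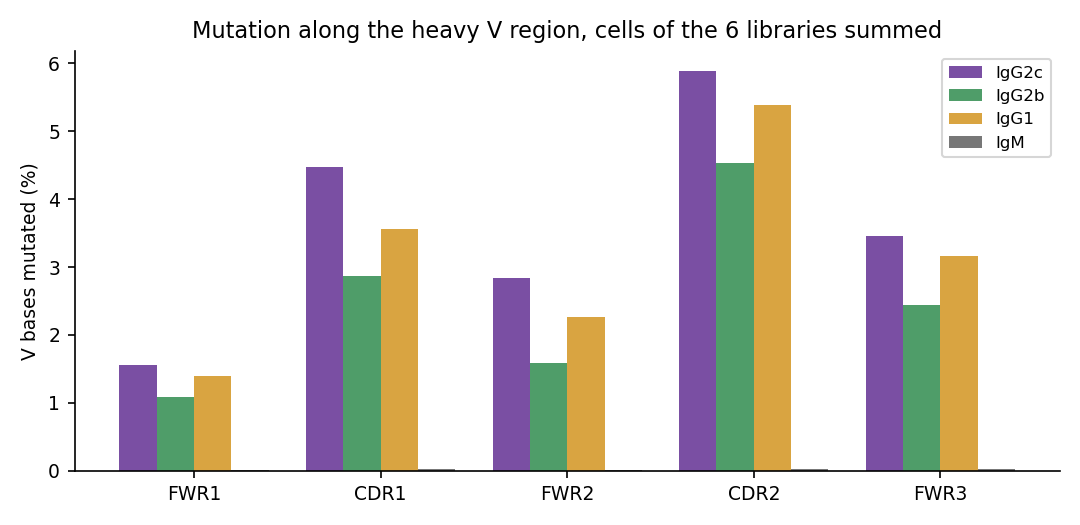
Percent of heavy V bases mutated in each framework (FWR) and complementarity-determining (CDR) region, with the cells of the 6 libraries summed, for IgG2c, IgG2b, IgG1 and IgM. In IgG2c CDR2 reached 5.89% and FWR1 1.56%; the IgM bars are close to 0.

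Mutations of IgG2c cells fell more often at AID hotspots, the short motifs at which AID is known to act best, than the share of such bases would give. A hotspot was counted as a C preceded by A or G with A or T before that, or the reverse complement of this on the other strand. Such positions held 40.5% of IgG2c mutations and 13.5% of the germline bases, a ratio of 2.99. The ratio was 3.44 in WT dCLN, 2.87 in 5xFAD dCLN, 2.64 in WT sCLN, 2.80 in 5xFAD sCLN and 3.52 in WT iLN. Transitions made up 61.2% of IgG2c mutations. Mutations started from A in 33.2%, from G in 33.6%, from C in 24.4% and from T in 8.83% of cases, while T made up 23.5% of the germline bases. The few mismatches of IgM cells, 841 in 13013 cells, had a hotspot ratio of 2.13 and started from T in 28.9%.

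The mutation of IgG2c cells was not told apart from that of IgG2b or IgG1 cells in these libraries. Against IgG2b the mean difference in heavy V mutation was 0.39 ± 1.45 percentage points (SD, n = 6 libraries), with IgG2c higher in 4 of 6, exact p = 0.5625. Against IgG1 it was -0.29 ± 2.05 (SD, n = 6), with IgG2c higher in 4 of 6, exact p = 0.96875. None of the 9 measures differed from IgG2b or from IgG1 at an unadjusted p of 0.05. The smallest exact p was 0.09375, for a CDR3 charge higher by 0.47 ± 0.516 (SD, n = 6) than in IgG1 in 5 of 6 libraries, adjusted 0.844. In heavy V mutation the inguinal libraries, with 5 and 3 IgG2c cells, lay opposite to the cervical ones. Against IgG1 the WT iLN difference was close to none, at -0.020 points. IgG2c exceeded IgG2b in heavy V mutation in 4 of 4 cervical libraries by a mean of 1.23 points.

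The median IgG2c cell carried fewer heavy chain transcripts than the median IgM cell in each library, and 12 cells carried very many. The median number of heavy chain unique molecular identifiers (UMIs, counts of captured transcripts) per IgG2c cell was 7 in WT dCLN, 6 in 5xFAD dCLN, 11 in WT sCLN, 5 in 5xFAD sCLN, 13 in WT iLN and 8 in 5xFAD iLN. IgM medians in the same order were 10, 14, 12, 13, 14 and 13. Those of IgG2b were 9, 10, 11, 10, 10 and 14, and those of IgG1 were 6, 12, 17, 12, 6 and 7. The IgG2c median was lower than that of IgM in 6 of 6 libraries, by a mean of 4.33 UMIs. Its exact sign-flip p of 0.03125 is the smallest 6 libraries can give, adjusted 0.1875 over 9 measures. The median is an alternative here, as the measure set for heavy UMIs was the mean log2 scale. On that scale the difference from IgM was -0.34 ± 0.658 (SD, n = 6), lower in 3 of 6 libraries, exact p = 0.34375. Cells with 1 or 2 heavy UMIs were 12.4% (7.86 to 18.4) of IgG2c and 1.68% (1.47 to 1.92) of IgM cells. They were 10.4% of IgG2b and 12.1% of IgG1 cells. Such cells rest on few transcripts.

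Heavy chains with 100 or more UMIs, a level typical of antibody-secreting cells, were found in 12 of 169 IgG2c cells, or 7.10% (3.72 to 12.1), and in 26 of 13024 IgM cells, with an interval of 0.130% to 0.292%. In IgG2b cells they numbered 11 of 202, or 5.45% (2.75 to 9.53), with 7 in WT dCLN, 3 in WT sCLN and 1 in 5xFAD iLN. In IgG1 cells they numbered 2 of 116, or 1.72% (0.209 to 6.09), both in WT sCLN. The 12 IgG2c cells were 6 in WT dCLN, 5 in WT sCLN and 1 in 5xFAD dCLN. In 5xFAD sCLN there were 0 of 21, which allows a share of up to 14.3%, and the inguinal libraries had none among 8 cells. The 6 WT dCLN cells fell into 3 heavy chain groups, 1 of them a single cell, and held 97.3% of the 17904 IgG2c heavy UMIs of their library. The 5 cells of WT sCLN fell into 4 groups and held 86.6% of 5207. Of the 12 cells, 11 were mutated, between 1.03% and 9.18%. The exception, an IGHV1-50 and IGHJ3 cell of WT dCLN with light chain IGKV19-93, had 5762 UMIs, the most of any IgG2c cell, and no heavy V mutation. No IgG2c cell with 1 or 2 UMIs had the junction of a cell with 100 or more in its library. Gene expression was not used here, so the state of these cells was not tested.

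**Figure D4:**
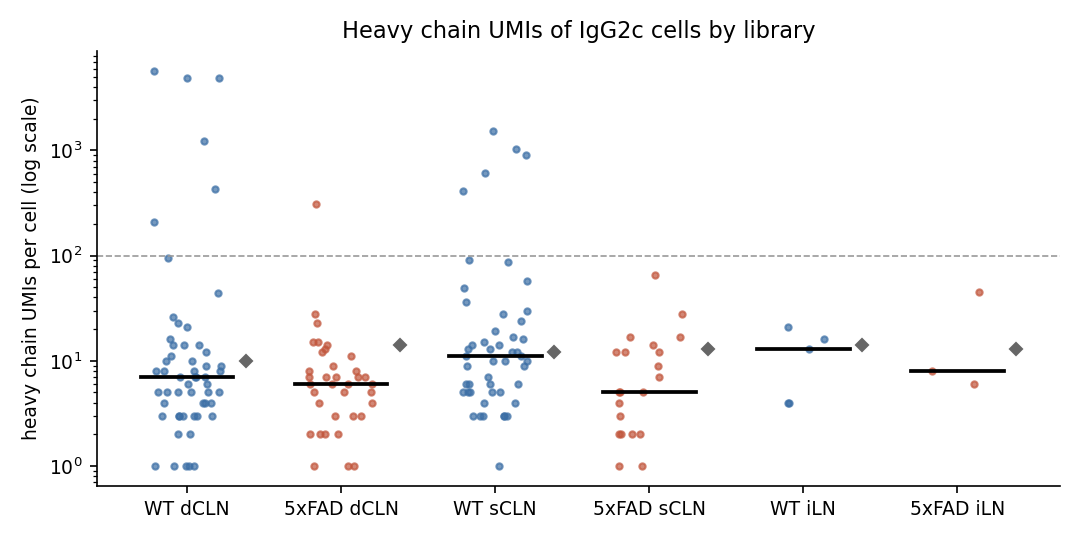
Heavy chain UMIs of each IgG2c cell (points, log scale) by library; black lines are IgG2c medians, grey diamonds IgM medians, the dashed line 100 UMIs. IgG2c medians lie at 5 to 13, under the IgM median in each library, and 11 of the 12 cells above the line are from WT cervical nodes.

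IgG2c cells used 55 IGHV genes, 21 of them in 1 cell only, and IgM cells used 96. IGHV1, the largest mouse family, supplied 53.8% (46.0 to 61.5) of IgG2c and 56.7% (55.8 to 57.5) of IgM cells. Its share of IgG2c cells was 47.3% in WT dCLN, 47.2% in 5xFAD dCLN, 53.1% in WT sCLN and 76.2% in 5xFAD sCLN. The difference from IgM averaged 7.38 ± 20.7 points (SD, n = 6) with exact p = 0.5, and -1.12 points over the 4 cervical libraries. IGHV2 made up 10.7% (6.44 to 16.3) against 8.18% of IgM, IGHV5 10.1% (5.97 to 15.6) against 8.34%, and IGHV8 7.10% (3.72 to 12.1) against 5.86%. IGHV9 made up 4.73% against 5.75% and IGHV3 4.73% against 4.39%. IGHV4, a family with the single gene IGHV4-1 in these cells, made up 4.14% (1.68 to 8.35) of IgG2c against 0.745% (0.604 to 0.908) of IgM. Its 7 IgG2c cells were 5 clones, with none in 5xFAD sCLN. It made up 1.98% of IgG2b and 0% of IgG1 cells. IGHV14 was under IgM in 4 of 4 cervical libraries, at 1.18% (0.144 to 4.21) against 4.57%. The remaining families IGHV6, IGHV7, IGHV10 and IGHV15 had 1 or 2 IgG2c cells each, and IGHV11, IGHV12 and IGHV13 had 0 of 169, which allows up to 1.78%.

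Single genes were compared in the 4 cervical libraries, among the 59 IGHV genes with an IgG2c cell or at least 1% of IgM cells. A higher share in IgG2c than IgM in all 4 was found for 2 genes, 3.39% of those tested, and a lower share in all 4 for 5 genes, 8.47%. Of the 5 lower genes, 4 had no IgG2c cell and were compared only because of their IgM share, so their direction was fixed by that choice. The higher genes were IGHV1-76 and IGHV1-82. IGHV1-76, at chr12:115847881-115848331, had 4, 1, 1 and 1 IgG2c cells in WT dCLN, 5xFAD dCLN, WT sCLN and 5xFAD sCLN, 7.27%, 2.78%, 2.04% and 4.76% against 1.13%, 1.13%, 1.92% and 0.872% in IgM. In WT dCLN 3 of its cells were 1 clone. IGHV1-82, at chr12:115952538-115953005, had 2, 1, 4 and 1 cells in the same order, and its 10 IgG2c cells over the 6 libraries were 10 separate clones with a mean mutation of 4.71%. Over the 6 libraries IGHV1-76 made up 4.14% of IgG2c, 1.22% of IgM, 4.95% of IgG2b and 1.72% of IgG1 cells. For IGHV1-82 these shares were 5.92%, 2.20%, 2.48% and 8.62%. The lower genes were IGHV1-22, IGHV1-69, IGHV1-80, IGHV14-3 and IGHV14-4, which together held 1 IgG2c cell; apart from IGHV1-69 and IGHV1-80 they were named after their values were seen. IGHV1-69, at 2.07% of IgM cells, had 0 of 169 IgG2c cells, and IGHV1-80, at 2.27% of IgM cells, had 1. With 21 to 55 IgG2c cells a library, 1 cell moves a share by several points.

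**Figure D5:**
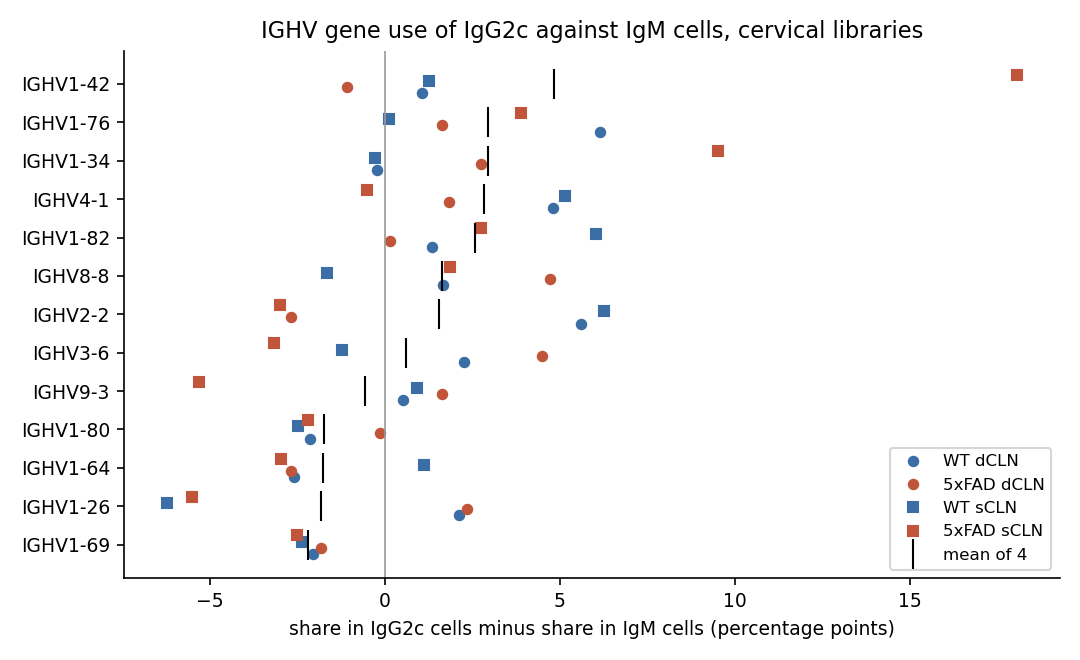
Share of each named IGHV gene among IgG2c cells minus its share among IgM cells, in percentage points, for the 4 cervical libraries (circles dCLN, squares sCLN, blue WT, red 5xFAD; ticks are means of 4). IGHV1-76 and IGHV1-82 lie above 0 in all 4 and IGHV1-69 and IGHV1-80 below; the outlying IGHV1-42 square is 4 cells of 5xFAD sCLN.

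The IGHV genes with most IgG2c cells were IGHV1-82 and IGHV2-2 with 10 each, then IGHV1-26, IGHV3-6 and IGHV8-8 with 8, and IGHV1-76, IGHV4-1 and IGHV9-3 with 7. IGHV2-2, at chr12:113588267-113588702, had 10 IgG2c cells in 8 clones, with 5 cells in WT dCLN and 5 in WT sCLN. These were 9.17% of the 109 IgG2c cells of WT mice. The 60 IgG2c cells of 5xFAD mice had 0, which allows a share of up to 5%, and the difference was not tested. That limit lies above the IgM share of this gene in each 5xFAD library. Its IgM share was 2.63% to 3.93% in every library. IGHV1-26, the most used IgM gene among those named at 5.89%, had 4 cells in WT dCLN, 3 in 5xFAD dCLN, 1 in WT iLN and none in either sCLN. IGHV4-1, at chr12:113948282-113948796, had 3 cells in WT dCLN, 3 in WT sCLN and 1 in 5xFAD dCLN. IGHV1-42 had the largest mean excess over IgM, 4.84 ± 8.88 points (SD, n = 4 libraries), which was 2.87 with each clone counted once, since 3 of its 4 cells in 5xFAD sCLN were 1 clone. With each clone counted once, IGHV1-34 at 3.20 and IGHV1-82 at 3.10 points lay above it. Over all cells IGHV1-76 averaged 2.95 ± 2.63 points and IGHV1-34, with 3 cells, 2.94 ± 4.61 points. IGHV1-26 and IGHV1-64 were lower on average, by -1.81 ± 4.69 and -1.77 ± 1.93 points, and each was higher than IgM in 1 or more of the 4 libraries.

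Among joining segments IGHJ2 was in 33.7% (26.6 to 41.4) of IgG2c and 32.8% of IgM cells, IGHJ4 in 29.6% (22.8 to 37.1) and 25.7%, IGHJ3 in 21.9% (15.9 to 28.9) and 23.5%, and IGHJ1 in 14.8% (9.81 to 21.1) and 18.0%. The J and D segments form the end and middle of the third loop. WT dCLN was unlike the other cervical libraries in IGHJ1, with 1 of 55 IgG2c cells against 8 of 36 in 5xFAD dCLN, 10 of 49 in WT sCLN and 4 of 21 in 5xFAD sCLN. Its IgM cells used IGHJ1 at 18.1%. IGHD2 segments were called in 40.2% (32.8 to 48.0) of IgG2c and 34.2% of IgM cells and IGHD1 in 33.7% (26.6 to 41.4) and 37.7%. IGHD4 stood at 10.7% and 9.96%, IGHD3 at 5.92% and 6.76%, IGHD6 at 1.18% and 0.791% and IGHD5 at 0.592% and 0.461%. No D segment was called in 13 IgG2c cells.

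The third heavy chain loop, CDR3, had a higher mean length in IgG2c than in IgM cells in 5 of 6 libraries. The mean length was 12.8 amino acids in WT dCLN, 13.5 in 5xFAD dCLN, 12.7 in WT sCLN, 11.8 in 5xFAD sCLN, 12.2 in WT iLN and 12.3 in 5xFAD iLN, against 12.0 to 12.1 in IgM. The difference was 0.50 ± 0.610 (SD, n = 6), higher in 5 of 6 libraries, exact p = 0.125, adjusted 0.234. Nucleotides between V, D and J not assigned to a germline segment (N additions) averaged 10.2, 9.06, 9.88, 8.29, 8.20 and 6.00 in the same order of libraries, and 6.96 to 7.22 in IgM. That difference was 1.46 ± 1.56 bases (SD, n = 6), higher in 5 of 6, exact p = 0.125, adjusted 0.234. By mutation level, IgG2c cells at 5% or more averaged 11.3 such bases and unmutated ones 8.28. Restricted to unmutated cells of both isotypes, an alternative added after the data were seen, the N addition difference was 0.53 bases, exact p = 0.40625, and the CDR3 length difference 1.46 amino acids, exact p = 0.0625. The net charge of the loop averaged 0.327 in WT dCLN and 0.60 in WT iLN, and -0.122 to -0.333 in the other 4 libraries. IgM stood at -0.262 to -0.336, and the difference of 0.28 ± 0.406 (SD, n = 6) gave exact p = 0.1875.

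Light chains of IgG2c cells were mostly kappa. A single light chain was found in 148 of 169 cells, 2 or more in 14 and none in 7. Lambda made up 5 of 148, or 3.38% (1.11 to 7.71), and 4.36% (4.00 to 4.74) of IgM cells; the difference was -1.76 ± 2.36 points (SD, n = 6), exact p = 0.15625. The lambda cells joined IGLJ1 in 3 cases and IGLJ2 in 2. IGKJ2 was joined in 33.8% (26.2 to 42.0) of IgG2c and 28.8% of IgM cells, IGKJ1 in 26.4% and 28.3%, IGKJ5 in 20.9% and 25.1%, and IGKJ4 in 15.5% and 13.5%. The 57 light V genes were led by IGKV10-96 with 8 cells, IGKV12-44 and IGKV12-46 with 7, and IGKV1-117, IGKV17-127, IGKV6-15, IGKV8-30 and IGKV9-124 with 6 each. IGKV10-96 lies at chr6:68631963-68632442 and made up 5.41% (2.36 to 10.4) of IgG2c and 5.55% of IgM cells. IGKV9-124, at chr6:67942074-67942540, made up 4.05% (1.50 to 8.61) against 0.746% (0.599 to 0.918), with 3 of its 6 cells in WT dCLN. Its 6 cells were 5 clones. IGKV8-30 made up 4.05% against 1.40% and IGKV12-46 4.73% (1.92 to 9.50) against 2.50%. IGKV12-44 stood at 4.73% against 2.37%, and IGKV17-127, IGKV1-117 and IGKV6-15 at 4.05% each against 2.43%, 3.70% and 3.35%. These genes were listed for their number of IgG2c cells, a choice that favours a share above IgM. The 148 cells formed 124 different pairs of heavy and light V gene.

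Clones joined cells of a library with the same V gene, J gene and junction length whose junctions differed at no more than 0.15 of bases. In WT dCLN 28 of 55 IgG2c cells, or 50.9% (37.1 to 64.6), shared a clone with another cell of any isotype. In 5xFAD dCLN 6 of 36 did, or 16.7% (6.37 to 32.8), and the counting intervals did not overlap. The share was 20.4% (10.2 to 34.3) in WT sCLN and 19.0% (5.45 to 41.9) in 5xFAD sCLN. In iLN 0 of 5 WT and 1 of 3 5xFAD cells were in clones. IgM cells stood at 8.50% to 17.8%, and IgG2c was higher in 5 of 6 libraries by 11.4 ± 15.0 points (SD, n = 6), exact p = 0.15625, adjusted 0.234. With the same light chain required in clones this difference was 5.16 points, exact p = 0.34375. Of the other subclasses, IgG2b cells were at 50.0% in WT dCLN and 21.3% in 5xFAD dCLN, and IgG1 cells at 53.8% and 56.3%. When the light chain had to match as well in its V gene, its J gene and its junction length, the shares were 38.2% (25.4 to 52.3) in WT dCLN and 8.33% (1.75 to 22.5) in 5xFAD dCLN. An IgG2c cell without a light chain cannot match a cell that has one. Such cells were 1 of 55 in WT dCLN and 3 of 36 in 5xFAD dCLN, among the latter those of the IGHV2-4 and IGHV6-3 clones. Counting barcodes with identical heavy and light junctions as 1 cell gave 37.5% (24.0 to 52.6) and 11.4% (3.20 to 26.7), whose intervals overlapped. The intervals also overlapped when clones were joined at a junction distance of 0.10, at 28.7 to 55.9 for WT and 4.67 to 29.5 for 5xFAD dCLN, and at 0.20, at 38.8 to 66.3 and 10.1 to 39.2. These 4 alternatives were added for this comparison after the data were seen.

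Clones with 2 or more IgG2c cells numbered 15 and held 34 cells: 10 clones in WT dCLN, 3 in WT sCLN and 1 each in 5xFAD dCLN and 5xFAD sCLN. None held more than 3 IgG2c cells. In 13 of the 15 at least 2 IgG2c cells shared a light chain V gene. Their heavy junctions, from the conserved cysteine codon to the tryptophan codon, are shown from the IgG2c cell with most UMIs, since the junction identifies the clone; capitals mark bases that the alignment assigns to no germline segment.
WT dCLN, IGHV1-26 and IGHJ2: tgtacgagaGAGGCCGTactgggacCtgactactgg
WT dCLN, IGHV1-50 and IGHJ4, short: tgtataagGGGGCGGCATCtgggctactgg
WT dCLN, IGHV1-50 and IGHJ4, long: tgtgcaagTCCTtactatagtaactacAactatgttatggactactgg
WT dCLN, IGHV1-72 and IGHJ2: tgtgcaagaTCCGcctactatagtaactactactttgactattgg
WT dCLN, IGHV1-76 and IGHJ2: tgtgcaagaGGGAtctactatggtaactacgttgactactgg
WT dCLN, IGHV2-2 and IGHJ3: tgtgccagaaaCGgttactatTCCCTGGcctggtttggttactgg
WT dCLN, IGHV4-1 and IGHJ4: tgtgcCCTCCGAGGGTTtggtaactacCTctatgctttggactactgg
WT dCLN, IGHV5-12 and IGHJ4: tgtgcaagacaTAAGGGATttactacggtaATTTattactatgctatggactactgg
WT dCLN, IGHV5-4 and IGHJ3: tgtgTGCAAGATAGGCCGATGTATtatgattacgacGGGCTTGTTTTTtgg
WT dCLN, IGHV8-8 and IGHJ2: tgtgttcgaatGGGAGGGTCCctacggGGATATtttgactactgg
WT sCLN, IGHV2-2 and IGHJ2: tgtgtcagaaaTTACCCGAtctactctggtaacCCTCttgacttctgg
WT sCLN, IGHV4-1 and IGHJ3: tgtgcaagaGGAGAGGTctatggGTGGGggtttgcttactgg
WT sCLN, IGHV5-6 and IGHJ1: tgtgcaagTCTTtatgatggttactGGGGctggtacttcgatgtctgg
5xFAD dCLN, IGHV2-9-1 and IGHJ3: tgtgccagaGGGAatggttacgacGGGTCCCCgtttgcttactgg
5xFAD sCLN, IGHV1-42 and IGHJ4: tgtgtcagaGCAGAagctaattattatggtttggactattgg

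The short IGHV1-50 clone of WT dCLN, with light chain IGKV11-125, had 3 IgG2c cells of 1231, 4864 and 4931 heavy UMIs, each with 5.46% of V bases mutated and the same junction. The IGHV1-72 clone, with IGKV8-30, had 2 cells of 211 and 430 UMIs and mutation of 5.10% and 3.74%. In WT sCLN the IGHV4-1 clone, with IGKV13-85, had 2 cells of 612 and 909 UMIs, both at 3.40%. These 3 clones held 7 of the 12 IgG2c cells with 100 or more UMIs. In 7 of the 15 clones all IgG2c cells had identical heavy and light junctions; whether their barcodes are separate cells was not tested.

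The other clones had 1 to 87 UMIs in each IgG2c cell, the highest in the IGHV2-2 pair of WT sCLN. The IGHV1-26 clone of WT dCLN, with IGKV9-120 in 5 of its 6 cells, was spread over 3 subclasses, with 2 IgG2c, 2 IgG2b and 2 IgG1 cells at 4.08% to 4.42% mutation. The IGHV8-8 clone, with IGKV14-126, had 3 IgG2c cells at 5.02% to 5.35%, and the IGHV1-76 clone, with IGKV10-96, had 3 at 0.34% to 1.36%. The long IGHV1-50 clone had 2 cells at 2.39% with IGKV12-44 and the IGHV4-1 clone 2 at 2.07% with IGKV12-46. The IGHV5-12 clone joined 2 IgG2c cells at 0 and 0.676% with an unmutated IgG2b cell. Both IgG2c cells had IGKV9-124, but the IgG2b cell had another light chain V gene, so only the heavy chain joined it. The IGHV5-4 pair, at 9.32% and 10.0%, and the IGHV2-2 pair of WT dCLN, both at 4.44%, did not share a light chain V gene within the pair. In WT sCLN the IGHV2-2 pair with IGKV6-13 stood at 3.41% and 5.12% and the IGHV5-6 pair with IGLV3 at 0.683%. The single clone of this kind in 5xFAD dCLN, IGHV2-9-1 with IGKV1-135, was unmutated in both cells.

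The IGHV1-42 clone of 5xFAD sCLN, with IGKV4-72 in 3 of 3 cells, was the most mutated of the 15 with a shared light chain, and its cells differed from each other. The stretch from CDR1 to the end of CDR2, 99 bases, is printed for the germline gene and the 3 cells, with mutated bases in capitals.
germline IGHV1-42: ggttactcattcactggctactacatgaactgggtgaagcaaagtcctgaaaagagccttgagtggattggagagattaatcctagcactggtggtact
cell 1: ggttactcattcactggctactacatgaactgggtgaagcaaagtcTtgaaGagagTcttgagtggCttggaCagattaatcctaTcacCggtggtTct
cell 2: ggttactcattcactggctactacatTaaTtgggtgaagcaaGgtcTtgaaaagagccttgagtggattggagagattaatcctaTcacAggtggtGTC
cell 3: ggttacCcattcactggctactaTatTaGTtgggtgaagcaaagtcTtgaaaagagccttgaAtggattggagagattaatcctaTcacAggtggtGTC
The 3 cells had 8, 9 and 12 mutations in this stretch and 5.10%, 10.2% and 10.9% over the V segment. From framework 1 to framework 3 they carried 14, 28 and 30 mutations, of which 4 were common to all 3 cells. Cells 2 and 3 had 22 in common, and cells 1 and 2 had 5.

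IgG2c cells shared clones with other isotypes in 17 cases. IgG2b was a partner in 10 of these, IgG1 in 2 and IgA in 1, and IgM or IgD in 7. Where the partners were switched cells only, an IgG2c cell and a partner had the same light chain V gene in 5 of 10 clones. Among the rest, the IGHV2-4 and IGHV6-3 clones of 5xFAD dCLN and the IGHV8-8 clone of 5xFAD sCLN allowed no comparison. Only 1 cell of each had a light chain contig. With IgM or IgD partners the light chain V gene was the same in 2 of 7 clones, among them IGHV8-8 and IGHJ2 of 5xFAD dCLN with IGKV6-15. The other, IGHV2-2 and IGHJ4 of WT dCLN, had IGKV17-127 in 4 of 4 cells, among them an IgG2c cell at 1.71%, an IgA cell and an IgM cell. A heavy junction of that kind can also arise more than once in unrelated cells, so clones with differing light chains may be joined by the heavy chain alone.

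When cells of the 6 libraries were grouped together, 15 groups held an IgG2c cell and a cell of another library. In 6 of them a light chain V gene was the same across libraries, judged by the name of the gene. These 6 are shown because the heavy chain group and the light chain V gene of an IgG2c cell recur there in a second library. IgG2c cells were in both libraries in 3 of them, and the 3 with an IgG2b cell were named after their values were seen. Capitals mark bases that differ from the first line of each group.
IGHV8-8 and IGHJ2, IGKV6-15, 5xFAD dCLN IgG2c: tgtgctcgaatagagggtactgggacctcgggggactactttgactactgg
IGHV8-8 and IGHJ2, IGKV6-15, 5xFAD sCLN IgG2c: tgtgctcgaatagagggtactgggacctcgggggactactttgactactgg
IGHV1-7 and IGHJ2, IGKV5-39, 5xFAD dCLN IgG2c: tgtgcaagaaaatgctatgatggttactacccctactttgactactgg
IGHV1-7 and IGHJ2, IGKV5-39, 5xFAD iLN IgG2c: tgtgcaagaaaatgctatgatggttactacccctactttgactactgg
IGHV8-12 and IGHJ2, IGKV12-44, 5xFAD dCLN IgG2c: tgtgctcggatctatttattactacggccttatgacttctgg
IGHV8-12 and IGHJ2, IGKV12-44, 5xFAD sCLN IgG2c: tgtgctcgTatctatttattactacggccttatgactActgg
IGHV1-77 and IGHJ1, IGKV6-15, 5xFAD dCLN IgG2b: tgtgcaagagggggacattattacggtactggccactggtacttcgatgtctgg
IGHV1-77 and IGHJ1, IGKV6-15, 5xFAD sCLN IgG2c: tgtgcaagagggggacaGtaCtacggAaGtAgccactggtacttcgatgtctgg
IGHV1-81 and IGHJ1, IGKV2-112, 5xFAD dCLN IgG2b: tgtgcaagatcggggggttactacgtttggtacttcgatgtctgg
IGHV1-81 and IGHJ1, IGKV2-112, 5xFAD sCLN IgG2c: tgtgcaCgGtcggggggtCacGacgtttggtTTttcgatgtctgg
IGHV9-3 and IGHJ1, IGKV14-111, WT dCLN IgG2c: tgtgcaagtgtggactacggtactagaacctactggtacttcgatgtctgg
IGHV9-3 and IGHJ1, IGKV14-111, WT iLN IgG2b: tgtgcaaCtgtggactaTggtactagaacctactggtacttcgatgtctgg

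IgG2c cells of 2 libraries also met by the heavy chain alone. IGHV4-1 and IGHJ3 joined IgG2c cells of WT dCLN with IGKV17-127 and of WT sCLN with IGKV13-85. The IGHV9-3 and IGHJ1 group, of 9 cells from 5 libraries, held, beside the WT dCLN cell with IGKV14-111, an IgG2c cell of 5xFAD dCLN with IGKV9-124.

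In each of the 6 groups the cells with the common light chain V gene were of 1 genotype, 5xFAD in 5 groups and WT in the IGHV9-3 group. The 2 IGHV8-8 cells and the 2 IGHV1-7 cells had identical junctions and no V mutation, and the IGHV8-8 group also held an IgD and an IgG2b cell of 5xFAD dCLN with that junction. The IGHV8-12 cells differed at 2 junction bases and had 0.676% and 1.01% V mutation. The IGHV1-81 pair differed at 6 bases, with 6.80% mutation in the IgG2b cell of the deep node and 13.4% in the IgG2c cell of the superficial node. The IGHV1-77 pair differed at 5 bases with 4.08% and 4.42%, and the IGHV9-3 pair at 2 with 3.41% in the IgG2c cell and 1.71% in the IgG2b cell. Library pairs shared between 4 and 35 barcodes, and 0 of the 169 IgG2c barcodes occurred in another of the 6 libraries.

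Barcodes with a second heavy chain were left out by the rule. Of 192 barcodes with an IgG2c contig, 23 had more than 1 heavy chain, or 12.0%, against 5.22% of 13741 barcodes with an IgM contig. Among all barcodes with a heavy chain this share ran from 2.59% in 5xFAD iLN to 5.62% in WT dCLN. A barcode with 2 isotypes counts under each, which raises the share more for a rare isotype. The gap is therefore not read as a trait of IgG2c cells. The second chain was IgM in 16 of the 23, IgD in 2, IgG1 in 2, IgG2b in 2 and IgG3 in 1. Depth was 99906 to 312484 UMIs and 2398 to 4411 barcodes per library. Between genotypes within a node, the mean IgG2c value was lower in 5xFAD than in WT in 3 of 3 nodes for 3 of the 9 measures. These were N additions, CDR3 charge and light V mutation, picked out because their direction agreed. The 5xFAD minus WT difference was -1.63 ± 0.547 bases (SD, n = 3), -0.57 ± 0.416 (SD, n = 3) and -0.943 ± 1.10 points (SD, n = 3) in this order. The light V difference was -0.250 points in dCLN, -0.370 in sCLN and -2.21 in iLN. Heavy V mutation was lower in 2 of 3 nodes. The 3 node pairs cannot give an exact p under 0.25, and the inguinal values rest on 5 and 3 cells.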

How the data were processed

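Receptor libraries were made from lymph node cells of female mice aged 10 to 11 months; hashtag-labelled tubes were combined into each library, per the labels' protocols. The submitters' processing notes list Cell Ranger 6.0.1, Seurat 4.1.0 and mm10. Which germline set the V, D and J calls used is not given in the sources used here. The authors deposited 1 contig per line; UMI and read numbers are raw counts, V identity is a fraction, and lengths of junctions and N additions count bases, per the file headers. Every deposited contig was marked productive.

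Cells with exactly 1 heavy chain contig were kept. V mutation was 100 times 1 minus V identity. No doublet caller was run, since gene expression was not used here, and barcodes with more than 1 heavy chain were left out. Heavy chains with equal V and J genes and junctions of equal length were linked into clones where at most 0.15 of junction positions differed (single linkage). Of the V calls, 7 in IgG2c cells named several genes and stood under the first. CDR3 charge was lysine plus arginine minus aspartate and glutamate. Intervals are exact Clopper-Pearson 95% intervals, which cover counting error only, and where no cell was found the limit is that of 3 counts. IgG2c was compared with IgM, IgG2b and IgG1 within each of 6 libraries by an exact two-sided sign-flip test over 64 sign patterns, with Benjamini-Hochberg adjustment over 9 measures. With 1 library per node and genotype there is no test within a node.

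The named genes were all IGHV families, IGHD families and J segments, the 8 IGHV and 8 light V genes with most IgG2c cells, the 4 largest differences from IgM each way, every clone with 2 or more IgG2c cells and every clone across libraries. The members and lists were chosen with earlier results of these data known. Alternatives varied the cell filters, the repeats, the clone definition and the libraries. Gene positions come from the GENCODE M21 annotation (GRCm38). The mutation counter, the clone caller and the test were tested on simulated data. Python 3.11.15, pandas 2.3.3, numpy 2.4.6 and SciPy 1.17.1 were used.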

Additional observations from a re-analysis of the deposited data

Results flagged for a closer look

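The library that mixes all nodes and both genotypes is in none of the comparisons. There 3.57% of cells with an isotype were IgG2c (95% exact interval 2.87 to 4.38), 87 cells, above the upper interval bound of each of the 6 other libraries. It was flagged as a signal in data outside the main measurement.

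Some differences between IgG2c and the other IgG subclasses had one sign in every library of a group and the opposite sign in every library of the other group. None of these was tested as a difference between groups, and the inguinal values rest on 5 and 3 IgG2c cells. Heavy V mutation of IgG2c minus IgG2b averaged 1.23 points in the 4 cervical libraries and -1.29 points in the 2 inguinal ones. Light V mutation of IgG2c minus IgG2b averaged 0.932 and -0.720 points in the same groups. Heavy V mutation of IgG2c minus IgG1 averaged 0.668 points in the cervical and -2.19 points in the inguinal libraries. The inguinal values were -0.020 in WT iLN and -4.37 in 5xFAD iLN, so that mean rests on 1 library. Light V mutation of IgG2c minus IgG1 averaged 0.468 points in the 3 WT libraries and -1.14 points in the 3 5xFAD libraries.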

How the results depend on the processing

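No paired analysis was possible on replicate numbers because each node and genotype has 1 library; isotypes were compared within libraries. The comparisons with IgM, IgG2b and IgG1 and the shares of cells were recomputed with at least 3 heavy UMIs and with each clone counted once. Those with IgM and the shares were also recomputed with exactly 1 light chain, with identical barcodes counted as 1 cell and with barcodes of several heavy chains kept. No adjusted p passed 0.05 under any of these or in the main analysis. The exceptions in direction were 3. Over the 4 cervical libraries only, the IGHV1 share was -1.12 points against IgM; with each clone counted once, N additions were -0.11 bases and the clone share 1.02 points against IgG1. The cause was not tested. Requiring the same light chain in clones put the 5xFAD iLN share of IgG2c cells in clones at 0, as the partners there carried another light chain.

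Leaving out 1 library in turn, which lowers the number to 5 and the smallest exact p to 0.0625, gave differences from IgM of 2.33 to 3.09 points for heavy V mutation and 1.63 to 2.12 for light V mutation. N additions ran from 1.15 to 1.99 bases, CDR3 length from 0.31 to 0.65, the clone share from 7.07 to 15.4 points and the IGHV1 share from 0.062 to 10.9 points. The lower ends of the last 3 are without 5xFAD dCLN, WT dCLN and 5xFAD iLN. CDR3 charge ran from 0.143, without WT iLN, to 0.345, and log2 heavy UMIs from -0.49 to -0.19, the smallest differences being without 5xFAD dCLN and without 5xFAD sCLN. With at least 3 heavy UMIs the log2 UMI difference was -0.0942. With the same light chain in clones the clone share difference was 5.16 points. Clones with 2 or more IgG2c cells were 14 at a distance of 0.10, 16 at 0.20 and 12 with the same light chain. In the inguinal libraries 1 cell is 20.0% or 33.3% of the IgG2c cells.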

Other observations

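The 87 IgG2c cells of the mixed library averaged 2.09% ± 1.65 heavy V mutation (SD over cells), under the 5 mutated libraries of known node, and 44 of them, or 50.6%, were in clones. In 11 of them the heavy chain had 100 or more UMIs, up to 5475. The clones there with 2 or more IgG2c cells numbered 11, and the largest had 8 IgG2c cells with IGHV5-17 and IGHJ2, 6 of them with IGKV13-84, at 2.72% to 5.10% mutation. Of its 60 IgG2c groups, 1 had a cell with the same light chain V gene in the 6 other libraries. These cells carry no node or genotype here.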
